A study of Mus musculus with 24 samples.

Results

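The genes described here are 9 genes of the contractile apparatus of the mammary myoepithelial cell: Acta2, Actg2, Mylk, Myh11, Cnn1, Tagln, Lmod1, Oxtr and Trp63. They were taken by name, as every non-control probe of the microarray whose gene name is one of these 9 symbols, and no measured value was used to choose them. The array held 23 such probes. All 23 passed the filter on dim probes, so that all 9 genes stood among the 22382 genes tested. RNA came from the number 4 (inguinal) mammary gland of C57BL/6 female mice with the lymph node taken out, and each of the 24 arrays carried the RNA of 1 mouse. The 4 groups were wild-type virgins at 8 weeks of age (WT_V8w, n = 7), virgins of the same age that carried the R96C change of SOCS2 as a homozygous knock-in (SOCS2_KI_V8w, n = 7), wild-type mice at day 18 of pregnancy (WT_G18, n = 5) and knock-in mice at day 18 of pregnancy (SOCS2_KI_G18, n = 5). The labels give no age for the pregnant mice. The knock-in is a change in the germ line, so every cell type of the gland carries it, and stage and any difference in age cannot be told apart.

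Myoepithelial cells form the outer, basal layer of the mammary ducts and alveoli and eject milk. Oxytocin released at suckling binds its receptor (Oxtr) on these cells, calcium rises, the myosin light chain kinase (Mylk) becomes active, and smooth muscle myosin (Myh11) pulls on filaments of the smooth muscle actins (Acta2 and Actg2). Calponin (Cnn1), transgelin (Tagln) and leiomodin (Lmod1) bind actin and set how its filaments form and slide. The transcription factor p63 (Trp63) marks the basal layer and is needed to maintain it. Apart from Oxtr and Trp63, the same genes are also made by the smooth muscle cells and pericytes of blood vessels. SOCS2 is an inhibitor of cytokine and growth hormone receptor signalling, and the study asked how its mutation affects the development and function of the gland.

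Levels are given as log2 signal relative to the array's own 75th percentile, so that a level of 0 is the 75th percentile of all non-control spots. The brightest tested probe stood for a gene. Differences are given as log2 values with the standard error (SE) of limma, a linear model fitted on all 24 arrays, and adjusted p-values are those of limma after Benjamini-Hochberg adjustment over all genes (or, for single probes, over all 35117 probes tested). A gene is called changed when that adjusted p was under 0.05. 3 arrays stood apart. The negative-control spots of knock-in virgin 376 had a median signal of 339.04. Those of the remaining 23 arrays had medians between 27.8 and 50.05, the latter in knock-in day-18 mouse 184. In knock-in virgin 198 Krt5, a keratin of the basal layer, was at -2.31, while no other array had it below -0.05, and Ckm, the creatine kinase of skeletal muscle, was at 7.66, its highest level of all. The tissue was RNA of the whole gland, so fewer cells of a type and less RNA per cell cannot be told apart in any result.

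In wild-type mice, 8 of the 9 genes rose from the virgin gland to day 18 of pregnancy, and none fell. The background was high: 20.9% of all genes tested were called higher in this comparison. The median difference of the 9 genes was 2.14, against 0.01 over all genes. In knock-in mice all 9 genes were called higher, where 22.9% of all genes were, with a median of 1.80 against 0.05. Genes whose every day-18 array lay above every virgin array numbered 8 of 9 in wild type, where 20.3% of all genes did so, and 6 of 9 in the knock-in, where 12.6% did. Without mice 376, 184 and 198 the counts of called genes were 8 in wild type and 9 in the knock-in, as before. The call of Trp63 rests on a probe whose readings followed those of probes of other genes with the same repeat in their sequence.

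**Figure D1:**
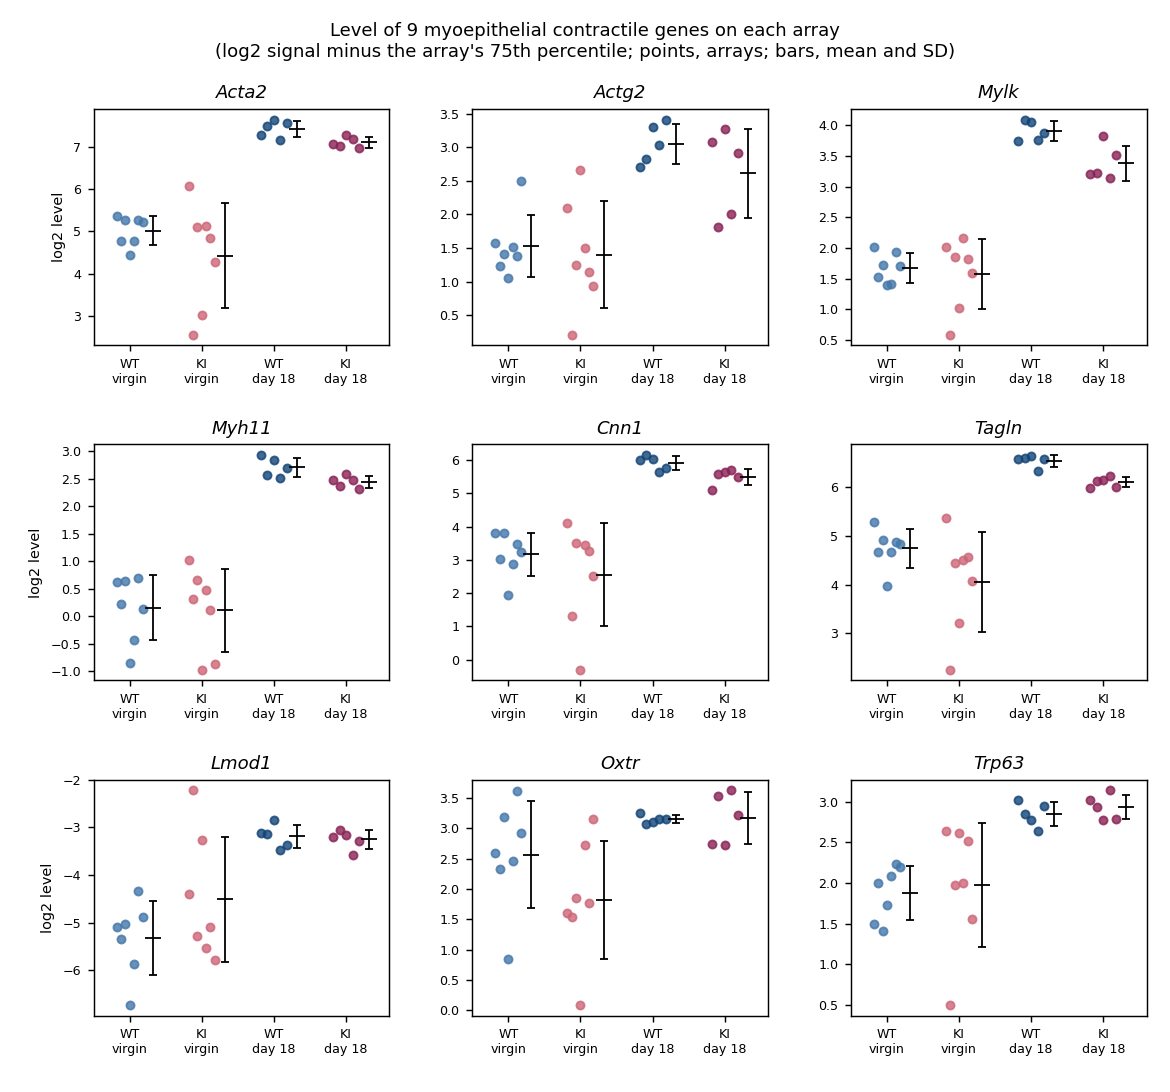
Log2 level (signal relative to the array's 75th percentile, y axis) of each of the 9 genes on each of the 24 arrays, by group on the x axis; WT is wild type, KI knock-in, points are arrays and black bars give the mean and SD of the group. The day-18 arrays lie above all virgin arrays for Acta2, Mylk, Myh11, Cnn1 and Tagln in both genotypes, and the knock-in virgins have the largest SD of the 4 groups for each of the 9 genes, such as 1.24 for Acta2.

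Acta2 encodes the smooth muscle alpha actin, the usual marker of myoepithelial cells. Its brightest probe ranged from 4.45 to 5.36 in the 7 wild-type virgins, with a median of 5.22. In the 5 wild-type mice at day 18 it was at 7.28, 7.48, 7.63, 7.15 and 7.55. The groups were well apart, with a difference of 2.40 ± 0.40, or 5.28-fold (adjusted p = 4.53e-05, limma). Knock-in virgins ranged from 2.57 to 6.07 around a median of 4.85, the 2 lowest being mice 376 and 198. The knock-in mice at day 18 were at 7.06, 7.02, 7.27, 7.19 and 6.97, again above every virgin. The difference in the knock-in was 2.67 ± 0.40 (adjusted p = 1.19e-05, limma), and it was 1.97 ± 0.25 without mice 376, 184 and 198. Within the 3 slides, the glass supports that each held 8 arrays, the wild-type difference was 2.57, 2.51 and 2.26 and the knock-in difference 2.49, 3.07 and 2.50. Only mouse 206 stood for the wild-type day-18 group on slide 1, and only mouse 211 for the knock-in day-18 group on slide 3. The knock-in virgins on slide 2 were mice 198 and 251.

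The 4 Acta2 probes did not behave alike. A_52_P210078, the most 3′ of the 3 probes placed on the main transcript record, rose by 3.24 ± 0.35 in wild type, or 9.44-fold, and by 3.0 ± 0.35 in the knock-in. A probe to another transcript record of the gene, A_52_P644232, rose by 1.99 ± 0.53 and 1.79 ± 0.53, although it was dim, at -4.72 ± 0.97 (SD, n = 7) in wild-type virgins. A_51_P450957, which lies in the coding sequence and spans an exon junction (mm9 chr19:34322995-34326249), gave 0.86 ± 0.64 and 0.91 ± 0.64 and was not called (adjusted p = 0.317 and 0.287, limma over probes). Actins are nearly identical to each other in protein sequence, so a probe placed in the coding sequence may bind RNA of another actin gene. How closely this probe matches other actin RNAs was not checked. The sequence of this probe is shown because its reading differed from those of the other Acta2 probes.
Acta2 A_51_P450957: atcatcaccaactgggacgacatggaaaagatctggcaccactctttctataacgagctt

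The 4 arrays on which the coding probe of Acta2 read highest were also the 4 with the most Acta1, the actin of skeletal muscle. Knock-in virgin 198 read 7.11 on this probe, with Acta1 at 8.44. Wild-type virgin 320 read 5.87, with Acta1 at 7.51, knock-in day-18 mouse 211 read 5.83, with Acta1 at 7.01, and knock-in day-18 mouse 184 read 5.21, with Acta1 at 5.73. On every other array Acta1 was at 2.90 or lower. The brightest Acta2 probe on the same array of mouse 198 was at 3.02, the second lowest value of all. Over the 24 arrays the coding probe had a Pearson r of 0.87 with Acta1, and the brightest probe 0.12. With Actc1, the cardiac actin, the r was 0.89 for the coding probe and 0.60 for the brightest probe. These values describe the arrays at hand and share the scaling and the RNA of each mouse. Leaving the 4 arrays out, a choice made after seeing the data, the coding probe averaged 3.30 ± 0.14 (SD, n = 6) in wild-type virgins and 4.52 ± 0.27 (SD, n = 5) at day 18, and the groups no longer overlapped. In wild type only virgin 320 was dropped, the array that had made the overlap, so this separation followed from the choice. In the knock-in the coding probe averaged 3.05 ± 0.81 (SD, n = 6) and 3.89 ± 0.43 (SD, n = 3), and there the stages still overlapped, with day-18 values from 3.54 and virgin values up to 3.81. Binding of Acta1 or Actc1 RNA to the coding probe was not tested.

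**Figure D2:**
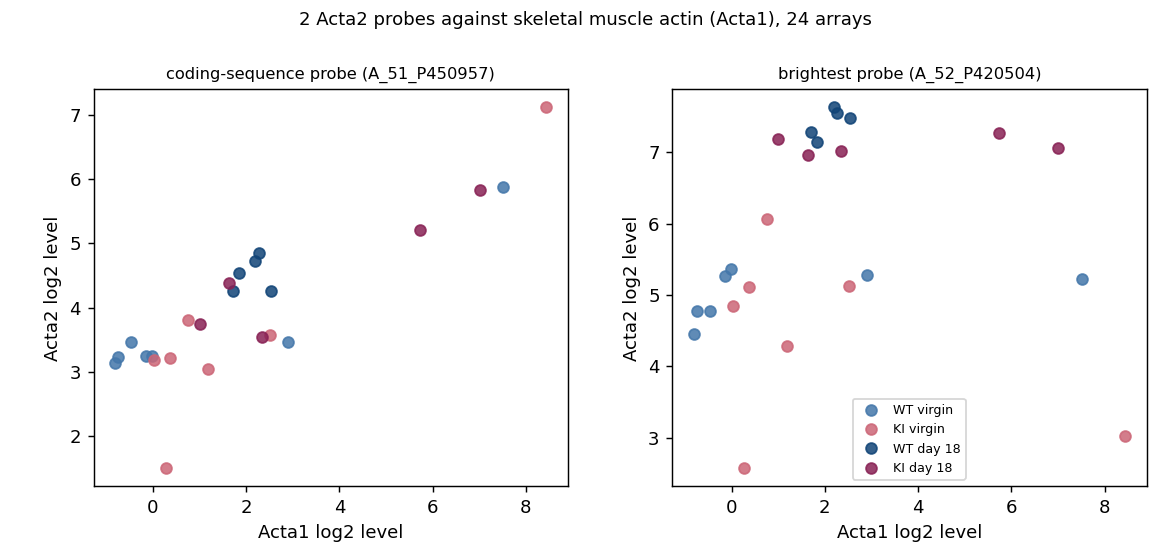
Log2 level of 2 Acta2 probes (y axes) against the log2 level of Acta1, the skeletal muscle actin (x axes), on the 24 arrays, coloured by group. The coding probe on the left is highest on the 4 arrays with Acta1 at 5.73 or above, reaching 7.11 in knock-in virgin 198, where the brightest probe on the right is at 3.02.

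Actg2, the smooth muscle gamma actin, had a single probe, A_51_P241269, which also lies in the coding sequence. It ranged from 1.06 to 2.50 in wild-type virgins, with a median of 1.41, and the highest of these was mouse 320, the array rich in Acta1. At day 18 the wild-type mice were at 2.71, 2.82, 3.30, 3.03 and 3.41, above all virgins. The rise was 1.53 ± 0.34 (adjusted p = 8.85e-04, limma). In the knock-in the virgins ranged from 0.21 to 2.67, the highest being mouse 198, and the day-18 mice were at 3.08, 1.81, 3.28, 2.01 and 2.91. The 2 groups overlapped, with a difference of 1.22 ± 0.34 (adjusted p = 0.0055, limma), and 2 of the 3 highest day-18 values came from mice 211 and 184. Of all genes tested that are not among the 9, the one most like Actg2 after group means were subtracted was Actc1, the cardiac actin, at r = 0.90 over 24 arrays. Whether the Actg2 probe also read other actins was not tested.

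Mylk, the kinase that switches myosin on, showed the rise with the smallest spread. Its brightest probe ranged from 1.39 to 2.01 in wild-type virgins, with a median of 1.71. At day 18 the wild-type mice were at 3.75, 4.09, 4.05, 3.76 and 3.88. The difference was 2.23 ± 0.22, or 4.70-fold (adjusted p = 4.89e-08, limma). In the knock-in the virgins ranged from 0.59 to 2.17 and the day-18 mice were at 3.2, 3.23, 3.82, 3.15 and 3.52, a difference of 1.80 ± 0.22, or 3.48-fold (adjusted p = 8.91e-07, limma). Every pregnant mouse of either genotype was above every virgin. The other 2 probes of the main transcript rose as well, A_51_P286146 by 2.30 ± 0.21 and A_55_P2728282 by 1.5 ± 0.24 in wild type. The 2 probes placed on other transcript records of Mylk, A_55_P1997375 and A_55_P2715663, were dim in all groups and were not called, at 0.90 ± 0.53 and 0.23 ± 0.59 in wild type.

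Myh11 encodes the smooth muscle myosin heavy chain, the motor of the filament. It ranged from -0.84 to 0.70 in wild-type virgins and from -0.97 to 1.03 in knock-in virgins. The wild-type mice at day 18 were at 2.93, 2.56, 2.84, 2.52 and 2.69, and the knock-in mice at 2.47, 2.36, 2.59, 2.47 and 2.32. No pregnant array overlapped a virgin array. The gene rose by 2.56 ± 0.31 in wild type, or 5.88-fold (adjusted p = 6.75e-07, limma), and by 2.33 ± 0.31 in the knock-in (adjusted p = 1.99e-06, limma). Of its other probes, A_55_P1988531 and A_55_P2734582 rose by 2.35 ± 0.33 and 2.60 ± 0.33 in wild type. A_55_P2733242, placed on an Ensembl record, rose by 1.02 ± 0.27, less than the rest.

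Among the proteins that bind actin, Cnn1 (calponin, a brake on myosin) had the largest estimates of the 9 genes in the knock-in and in wild type. Wild-type virgins ranged from 1.95 to 3.82 and the day-18 mice were at 5.99, 6.15, 6.02, 5.63 and 5.76, a rise of 2.74 ± 0.52, or 6.67-fold (adjusted p = 1.70e-04, limma). Knock-in virgins spread from -0.30 in mouse 198 and 1.31 in mouse 376 up to 4.11, and the day-18 mice were at 5.09, 5.58, 5.65, 5.69 and 5.49. The knock-in rise was 2.95 ± 0.52 (adjusted p = 7.10e-05, limma), and 2.09 ± 0.32 without mice 376, 184 and 198. Tagln (transgelin, which bundles actin filaments) ranged from 3.98 to 5.29 in wild-type virgins and from 2.25 to 5.37 in knock-in virgins. The day-18 values, 6.34 to 6.64 in wild type and 5.99 to 6.24 in the knock-in, all lay above these. It rose by 1.80 ± 0.34 in wild type (adjusted p = 1.99e-04, limma) and by 2.05 ± 0.34 in the knock-in (adjusted p = 4.43e-05, limma). The second Cnn1 probe, A_55_P2744265, rose by 2.76 ± 0.61 in wild type.

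Lmod1 (leiomodin, which starts new actin filaments) was near the limit of detection in virgins. Its probe was well above background on 5 of 7 wild-type virgins, 6 of 7 knock-in virgins and all 5 arrays of each day-18 group. Wild-type virgins ranged from -6.73 to -4.34, and the mice at day 18 were at -3.11, -3.13, -2.85, -3.47 and -3.37, a rise of 2.14 ± 0.47 (adjusted p = 7.94e-04, limma). Knock-in virgins ranged from -5.78 to -2.22. The 2 highest of them were mice 376, at -2.22, and 198, at -3.27, and both lay among or above the day-18 values of -3.2, -3.05, -3.15, -3.58 and -3.29. The knock-in difference of 1.25 ± 0.47 passed the threshold narrowly (adjusted p = 0.0347, limma). The call was lost on leaving out any 1 of 8 knock-in mice, with adjusted p from 0.0567 to 0.076. The difference was 1.94 ± 0.35 without mice 376, 184 and 198 (adjusted p = 8.97e-05, limma).

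**Figure D3:**
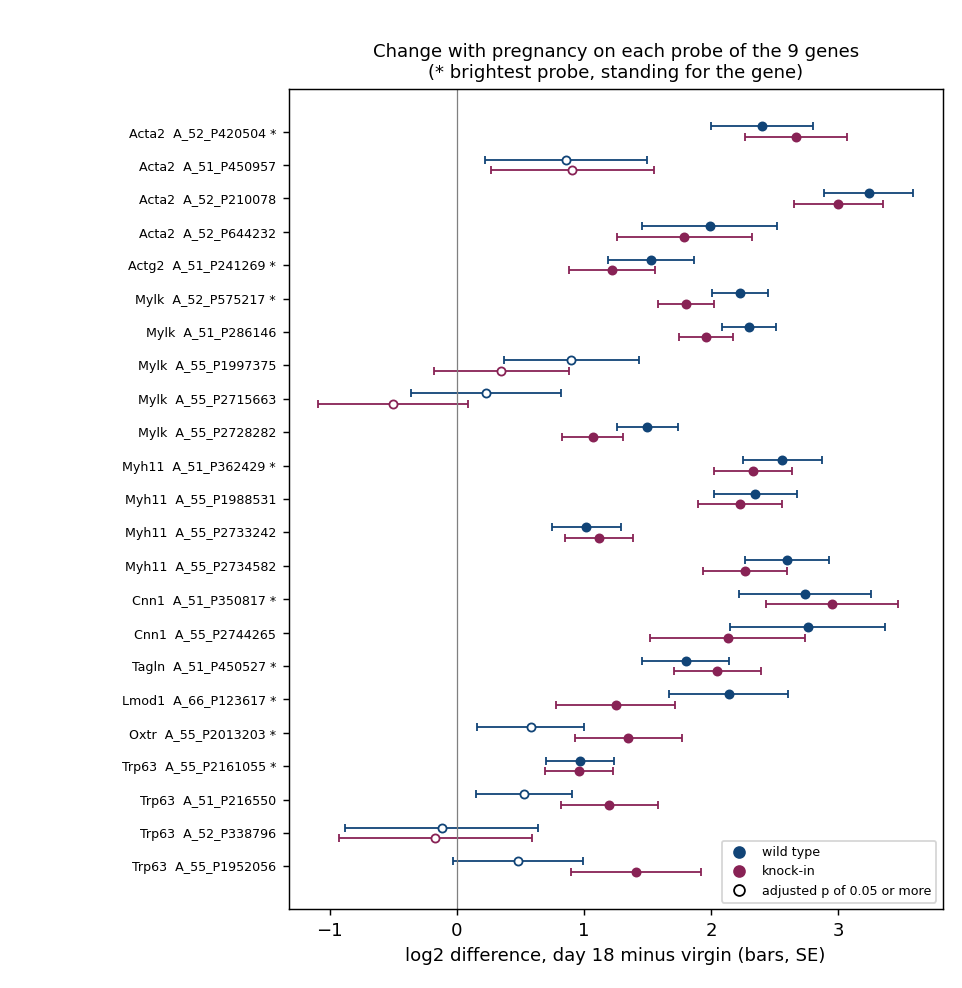
Log2 difference between day 18 and virgin (x axis, bars give the SE) for each of the 23 probes of the 9 genes (y axis), in wild type and in the knock-in; filled points had a limma adjusted p under 0.05 over all probes, and asterisks mark the brightest probe of a gene. Of the 23 probes, 16 were called higher in wild type and 19 in the knock-in, and the open points include the coding probe of Acta2, the 2 probes of other Mylk transcript records and, in wild type, Oxtr and 3 of the 4 Trp63 probes.

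Oxtr, the oxytocin receptor, is the step at which milk ejection is triggered, and it was the one gene of the 9 not called in wild type. Wild-type virgins were spread from 0.84 to 3.61 around a median of 2.59. At day 18 the wild-type mice lay close together, at 3.26, 3.08, 3.11, 3.15 and 3.15, inside the range of the virgins. The difference was 0.58 ± 0.42 (95% confidence interval -0.28 to 1.45, adjusted p = 0.281, limma). Knock-in virgins ranged from 0.09, in mouse 198, to 3.16 around a median of 1.77, and the pregnant knock-in mice were at 2.74, 3.53, 2.72, 3.63 and 3.23. That difference was 1.35 ± 0.42, or 2.55-fold (adjusted p = 0.0113, limma), with the groups overlapping. The 2 differences were not shown to be unequal: the knock-in minus wild-type difference was 0.77 ± 0.59 (95% confidence interval -0.45 to 1.99, adjusted p = 1.00, limma). At day 18 the mean levels were 3.15 ± 0.07 (SD, n = 5) in wild type and 3.17 ± 0.43 (SD, n = 5) in the knock-in.

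Trp63 was called higher at day 18 in both genotypes, by 0.97 ± 0.27 in wild type (adjusted p = 0.0055, limma) and 0.96 ± 0.27 in the knock-in (adjusted p = 0.0057, limma). This call came from its brightest probe, A_55_P2161055, in which 6 CAG triplets follow each other. Only 6 of the 22382 genes were represented by a probe with at least 5 CAG triplets in a row. The 3 genes most like Trp63 over the 24 arrays, Arhgap17 (r = 0.99), Crebbp (r = 0.98) and Git2 (r = 0.97), were 3 of the other 5, and they kept these places after group means were subtracted, in another order. Of the remaining pair, Pif1 had an r of 0.88 and BC051142 of 0.61. What the probes shown share is the run of triplets, printed in capitals (for the other genes, 30 of the 60 bases are shown). The whole probe of Trp63 lies at mm9 chr16:25871159-25871218.
Trp63 A_55_P2161055: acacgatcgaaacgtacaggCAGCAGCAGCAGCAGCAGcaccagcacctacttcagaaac
Arhgap17 A_55_P2112360: gcaacaaCAGCAGCAGCAGCAGaccccagg
Crebbp A_55_P1965836: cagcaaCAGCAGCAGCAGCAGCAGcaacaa
Git2 A_55_P1956179: aaaacccCAGCAGCAGCAGCAGcatccgtc

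The other Trp63 probes gave another picture. A_51_P216550, at position 4526 of its transcript record (mm9 chr16:25892012-25892071), ranged from -1.16 to 0.12 in wild-type virgins and was at 0.21, -0.07, 0.01, -0.40 and -0.35 at day 18, a difference of 0.53 ± 0.38 that was not called (adjusted p = 0.291, limma over probes). In the knock-in it rose by 1.20 ± 0.38 (adjusted p = 0.0138, limma over probes). A_55_P1952056 gave 0.48 ± 0.51 in wild type and 1.41 ± 0.51 in the knock-in (adjusted p = 0.496 and 0.0318, limma over probes). A_52_P338796 was near background and was called in neither. Mouse 198, whose basal keratins were the lowest of all arrays, showed the disagreement most: it was the lowest of its group on these 3 probes, at -3.89 on A_51_P216550, and the second highest on the brightest probe, at 2.61. The r of the brightest probe with the other 3 was 0.34, 0.46 and -0.34, and that between A_51_P216550 and A_55_P1952056 was 0.71. Whether the repeat sets the reading of the brightest probe was not tested. The mean of all 4 probes differed by 0.47 between the stages in wild type (adjusted p = 0.290, limma) and by 0.85 in the knock-in (adjusted p = 0.0484, limma).

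**Figure D4:**
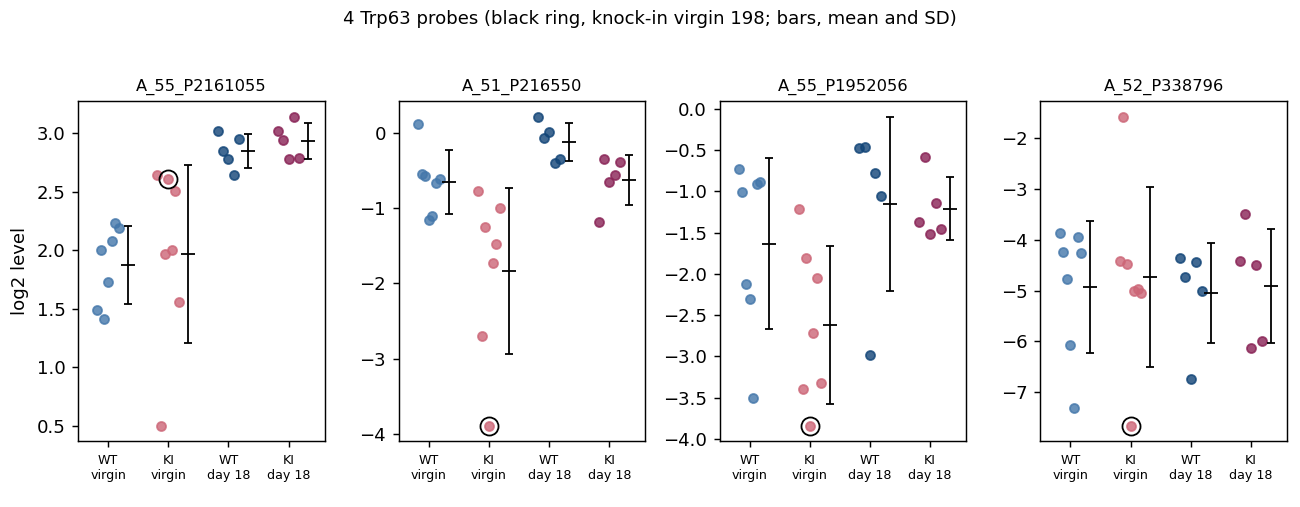
Log2 level (y axes) of the 4 Trp63 probes on the 24 arrays by group (x axes), with the mean and SD of each group in black and knock-in virgin 198 ringed. Mouse 198 is at 2.61 on the brightest probe at the left and lowest of its group on the other 3, at -3.89 on the second.

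By limma no gene of the whole array was called between genotypes in virgins, at day 18, on average over the stages or as a genotype-by-stage difference, so the background of these 4 comparisons was 0%. Among the 9 genes the estimates at day 18 were nevertheless below 0 for 7, with a median of -0.32 against 0.00 over all genes. Tagln is the clearest: wild-type mice were at 6.58, 6.60, 6.64, 6.34 and 6.58 and knock-in mice at 5.99, 6.14, 6.15, 6.24 and 6.02. No array of one genotype reached those of the other, as was so, with the knock-in lower, for 0.809% of all genes tested. The difference was -0.44 ± 0.37 (adjusted p = 1.00, limma), and a two-sided exact permutation test of the 5 against 5 mice gave p = 0.0079, the smallest this design allows. The SE of limma is shared by all 4 groups and so carries the spread of the knock-in virgins. With the day-18 groups alone it was -0.44 ± 0.11 (adjusted p = 0.714, limma).

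Mylk was lower by a similar amount in pregnant knock-in mice, at -0.52 ± 0.24, and 1 of its 5 knock-in values (3.82, mouse 184) reached the wild-type range of 3.75 to 4.09. Its exact permutation p was 0.0238, and the limma adjusted p was 1.00, or 0.344 for a difference of -0.63 ± 0.15 without mice 376, 184 and 198. A second Mylk probe, A_55_P2728282, did not overlap between the genotypes at all, with 0.90 to 1.36 in wild type against 0.04 to 0.85 in the knock-in (exact permutation p = 0.0079). Of the 23 probes, 2 did not overlap at day 18, and the share over all probes was not computed. Cnn1 (-0.41 ± 0.56) and Myh11 (-0.26 ± 0.33) had exact permutation p = 0.0238, and Acta2 (-0.32 ± 0.43) p = 0.0317. In all, 92 exact tests were made, on 23 probes in 4 comparisons, and 9 of the 23 at day 18 were under 0.05, several of them probes of one gene (3 of Mylk and 2 of Myh11). By gene, 5 of the 9 were under 0.05 with the knock-in lower, where 4.79% of the 22357 genes measured on all day-18 arrays were. These 5 genes followed each other from array to array, so they are not 5 separate observations. By limma 0 of the 9 genes were called, and 1 of 9 (Mylk) had an unadjusted p under 0.05, against 1.97% of all genes. The gene estimates of Acta2, Actg2, Mylk, Myh11, Cnn1 and Tagln stayed below 0 at day 18 under every alternative tried, while those of Lmod1, Oxtr and Trp63, all between -0.07 and 0.09, took either sign. Single probes differed. A_51_P216550 of Trp63 was at -0.51 ± 0.41 (exact permutation p = 0.0397), its other probes between -0.06 and 0.15. Further probes above 0 were A_51_P450957 (0.02) and A_52_P644232 (0.19) of Acta2, A_55_P1997375 (0.14) of Mylk and A_55_P2733242 (0.17) of Myh11. The remaining probes of these 3 genes and of Cnn1 were below 0. The differences at day 18 therefore did not pass the test over all genes or over all probes. Mural cell markers, of vessels, had a median of -0.26 in the same comparison, endothelial markers one of -0.25 and adipocyte markers one of -0.42, below that of the 9 genes, with 0 of 22, 0 of 12 and 0 of 10 called. The basal epithelium list had a median of -0.15 (0 of 24 called) and skeletal muscle markers, high in mice 211 and 184, one of 3.29 (0 of 17 called). The part of these cell types in the difference was not tested.

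In virgins, 0 of the 9 genes differed between genotypes by limma, and 1 (Tagln, -0.69 ± 0.31) had an unadjusted p under 0.05, against 3.58% of all genes. The estimates ran from -0.74 ± 0.38 for Oxtr to 0.82 ± 0.43 for Lmod1, each with an adjusted p of 0.702 (limma). These estimates moved with the arrays used: without mice 376, 184 and 198, Acta2 went from -0.59 to 0.07 and Cnn1 from -0.62 to 0.20. Only knock-in arrays were left out there, and mice 376 and 198 were the lowest for Acta2 and Cnn1, so both estimates had to rise. Wild-type virgin 317 stayed in, the lowest of its group for Acta2 (4.45) and Cnn1 (1.95). Its mean log2 level over the 9 genes was 0.87, close to the 0.79 of mouse 376. Leaving out low arrays of both genotypes was not tested. Between the same groups the luminal markers had a median of -1.26, the basal epithelium list one of -0.62 and the skeletal muscle markers one of 1.69, with none called, and their part in the differences was not tested. The only probe of the 23 with an exact permutation p under 0.05 was A_51_P216550 of Trp63. The share of all probes under that threshold was not computed for virgins, so 1 of 23 cannot be set against it. In wild-type virgins A_51_P216550 lay between -1.16 and 0.12 (median -0.61). The knock-in virgins lay between -3.89 and -0.77 (median -1.48), a difference of -1.18 ± 0.35 (exact permutation p = 0.0070, adjusted p = 0.743, limma over probes). Without mice 376 and 198, arrays left out after seeing the data, it was -0.60 (exact permutation p = 0.0278). The test for a genotype-dependent change with stage called 0 of the 9 genes, 0 with an unadjusted p under 0.05 (1.02% of all genes), with estimates from -0.89 ± 0.67 (Lmod1) to 0.77 ± 0.59 (Oxtr). The genotype difference averaged over both stages also gave 0 calls by limma, with 1 gene (Tagln) under an unadjusted p of 0.05, against 5.18% of all genes. On that average A_51_P216550 of Trp63 was at -0.84 ± 0.27 (adjusted p = 0.642, limma over probes).

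The wider contraction pathway had members that rose and members that fell. Over all genes, 20.9% were called higher and 20.9% lower in wild type, and 22.9% and 20.3% in the knock-in, and the counts of each list are to be read against these shares. Of 28 genes of contraction signalling downstream of the receptor, 6 rose, 3 fell and 19 were not called in wild type, with a median of -0.07, and 9, 3 and 16 in the knock-in, with a median of 0.16. Those that rose most were Orai1, the pore of the store-operated calcium channel, by 2.68 ± 0.31 in wild type (adjusted p = 3.50e-07, limma), and Myl9, the regulatory light chain that Mylk phosphorylates, by 1.51 ± 0.25 (adjusted p = 3.66e-05, limma). Plcb1, a phospholipase that Gq-coupled receptors activate, fell by 1.74 ± 0.19 on the log2 scale (adjusted p = 2.60e-07, limma). The knock-in gave 2.35, 1.41 and -1.45 for the same 3 genes.

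Of 29 tested genes of the actin filament and smooth muscle program, 6 rose and 5 fell in wild type (median -0.02), and 10 rose and 4 fell in the knock-in (median 0.14). Itga8, an integrin subunit of smooth muscle, rose by 3.33 ± 0.30 in wild type and 3.99 ± 0.30 in the knock-in. Tpm2, the beta tropomyosin, rose by 1.90 ± 0.63, and Kcnmb1, the beta subunit of the large-conductance potassium channel, by 1.84 ± 0.41 in wild type and 2.11 ± 0.41 in the knock-in. Myh10, a non-muscle myosin, fell by 1.86 in wild type and 1.67 in the knock-in, and Fhl1, a LIM-domain protein, by 1.78 and 2.05. Myocd, the coactivator of the smooth muscle program, was the one listed gene not tested. Smooth muscle genes of this list such as Smtn (0.66 ± 0.26) and Srf (0.29 ± 0.19, adjusted p = 0.245, limma) were closer to 0 in wild type.

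Markers of the other cell types of the gland moved too, and their levels are the setting in which the rise of the 9 genes was measured. Of 24 genes of the basal epithelium, 7 rose and 4 fell in wild type (median 0.42) and 11 rose and 4 fell in the knock-in (median 0.96). Lamb3 and Itga6, a laminin chain and an integrin of the basement membrane contact, rose by 3.13 ± 0.44 and 2.14 ± 0.30 in wild type, while Mme, a surface peptidase, fell by 1.5. The summed linear level of the basal list, in multiples of the 75th percentile, lay above the virgin range on every day-18 array: wild-type mice had 58 to 89.3 as virgins and 162 to 199 at day 18, knock-in mice 26.9 to 87 and 151 to 258. The keratins Krt5 and Krt14 were at 1.32 ± 0.65 and 1.60 ± 0.68 in wild type, not called, and rose by 2.11 ± 0.65 and 2.59 ± 0.68 in the knock-in. Knock-in virgin 198 was at -2.31 and -2.74 for these keratins, and knock-in virgin 376 at 0.10 and 0.12. Wild-type virgin 317 was low too, at -0.05 and 0.25. Mouse 198 also had the lowest mean log2 level of its group on the basal list (-1.71) and the luminal list (-3.67). The part of these arrays in the larger knock-in values was not tested. Krt17, another keratin of the list, lay between 0.40 and 2.76 in wild-type virgins and inside that range, at 1.41 to 2.34, at day 18. In the knock-in it ran from -2.77 to 2.61 and from 1.05 to 2.77. Of 14 luminal markers, 10 rose and 1 fell in wild type (median 2.62), led by the milk protein genes Wap, Csn2 and Lalba, and 11 rose and 1 fell in the knock-in (median 3.75). The summed luminal level was at most 303 in virgins and at least 1140 at day 18. The part of the epithelium's size in the rise of the 9 genes was not tested.

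The values also depend on what they are set against, since another scale moves all genes alike. When each array was expressed relative to its basal keratins (Krt5, Krt14 and Krt17), 0 of the 9 genes were called higher in wild type and 0 in the knock-in, where 1.93% and 1.33% of all genes were. The median of all genes was then -0.98 and -1.84. Acta2 was at 1.41 ± 0.67 and 0.77 ± 0.67 (adjusted p = 0.145 and 0.283, limma). In that scale the low keratins of mice 376 and 198 enter every gene. Without mice 376, 184 and 198, a choice made after seeing the data, 5 of 9 were called in wild type, where 4.62% of all genes were called higher, and 2 of 9 in the knock-in, where 4.32% were. Acta2 was then at 1.41 ± 0.40 in wild type (adjusted p = 0.0038, limma), and Myh11 and Cnn1, the 2 called in the knock-in, were at 1.11 ± 0.46 and 1.08 ± 0.45 (adjusted p = 0.0461 and 0.0488, limma).

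Mural cells, the smooth muscle cells and pericytes of vessels, share much of the contractile gene set, and some of their other markers fell. Of 22 tested mural markers, 0 rose and 10 fell in wild type (median -0.70), and 0 rose and 17 fell in the knock-in (median -1.01). Steap4, Ednra and Cspg4 fell by 2.49, 1.93 and 1.89 in wild type, while the vascular receptor gene Notch3 was at 0.08 ± 0.25 and was not called. The summed linear level of the mural list overlapped between the stages, at 67.5 to 86.4 and 50.7 to 75.7 in wild type and at 27.8 to 82.2 and 44.9 to 66.0 in the knock-in. Its mean log2 level did not overlap, at 0.06 to 0.37 in wild-type virgins and -0.82 to -0.48 at day 18. In the knock-in the mean was -0.25 to 0.50 in virgins and -1.20 to -0.34 at day 18. Relative to the mural list on the same array, all 9 genes were called higher in wild type and in the knock-in, but so were 58% and 63.1% of all genes, whose medians went to 0.87 and 1.05. Acta2 was at 3.26 ± 0.37 and 3.67 ± 0.37. Such a scale subtracts the same value from every gene of an array, so the distance of Acta2 from the median gene cannot change with it. This distance was 2.39 in wild type on this scale, on the keratin scale and on the main scale. In the knock-in it was 2.62 on this scale and the main scale and 2.61 on the keratin scale, or 1.95 on the keratin scale without mice 376, 184 and 198. Rergl and Nrip2 were well above background on only 2 and 3 of 5 wild-type arrays at day 18. Endothelial markers fell in 6 of 12 cases in wild type and 8 of 12 in the knock-in, fibroblast markers in 11 of 11 in both, and adipocyte markers in 7 of 10 in both, and none of the 3 lists held a gene that rose. The 17 skeletal muscle markers had summed levels that reached 2120 in wild-type virgins, 3650 in knock-in virgins and 1260 in knock-in mice at day 18, but only 30.6 in wild-type mice at day 18. Of them 1 was called, the myosin light chain gene Myl1, which fell by 3.15 in wild type.

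**Figure D5:**
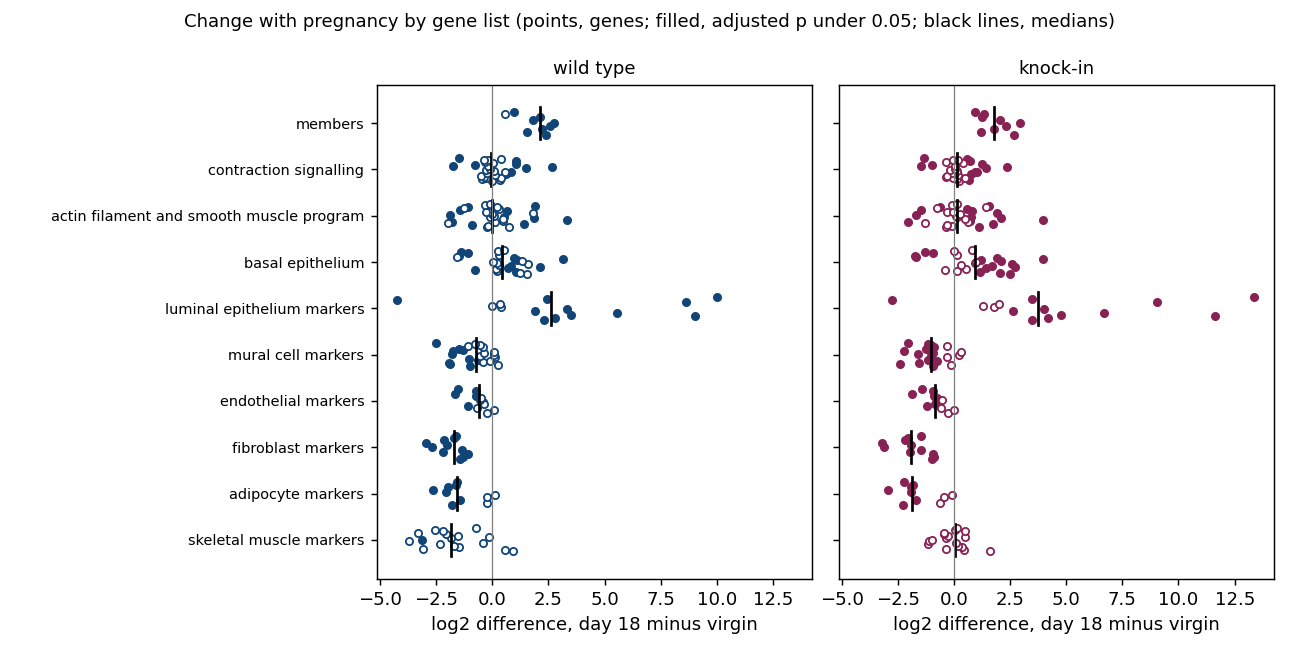
Log2 difference between day 18 and virgin (x axes) of each tested gene of 10 lists (y axis), in wild type and in the knock-in; filled points had a limma adjusted p under 0.05 and black lines are the medians of the lists. The 9 contractile genes have a median of 2.14 in wild type and 1.80 in the knock-in, beside -0.07 and 0.16 for contraction signalling and -0.70 and -1.01 for mural markers.

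The genes of the set followed each other unequally from array to array. Over the 24 arrays, after the mean of each group was subtracted, Acta2 had a Pearson r of 0.96 with Tagln, 0.89 with Cnn1 and 0.88 with Mylk, but 0.60 with Myh11, 0.43 with Oxtr, 0.25 with Actg2 and -0.46 with Lmod1. Mice 376 and 198 set several of these: without mouse 376 the r with Lmod1 was -0.09 and with Myh11 0.86, and without both mice it was 0.74 with Lmod1, 0.54 with Actg2 and 0.06 with Oxtr, arrays left out after seeing the data. The genes outside the set that were most like the mean of the 9, over all arrays, were Cracr2b, a regulator of store-operated calcium channels, at r = 0.99, then Map7, Rassf7, Sox10 and Arhgef5, each at 0.98. With group means subtracted, Cracr2b again came first, at 0.91, followed by Arhgef5 (0.91), Hid1 (0.89), Rapgefl1 (0.88) and Trpm4 (0.88). Cracr2b rose by 2.72 ± 0.26 in wild type and 2.86 ± 0.26 in the knock-in. Single members had other neighbours. Tes was the most like Acta2 (0.98) and Tagln (0.98), Irx2 the most like Cnn1 (0.98), Cracr2b the most like Mylk (0.98) and Sigirr the most like Myh11 (0.97). Dusp4 was the most like Oxtr, at 0.89, and Dtna the most like Lmod1, at 0.96. These values describe 24 arrays that share 4 groups, and no test was made of them.

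Promoter sequences from RefSeq on GRCm38.p6, 250 bases before to 50 after the start of the gene, were at hand for 5 of the 9 genes: Acta2, Mylk, Cnn1, Lmod1 and Oxtr. The motif GGAATG, the M-CAT element bound by TEAD factors, was searched on both strands. It was found in 3 of the 5, Acta2, Mylk and Lmod1, and in 14.7% of all 32851 promoters of the table. The 30 bases around each match are shown with the motif in capitals, on the strand of the gene, where CATTCC is the motif on the other strand. They lie at chr19:34255502-34255531 (minus strand), chr16:34784780-34784809 (plus strand) and chr1:135324671-135324700 (plus strand), and the motif begins 146, 158 and 130 bases before the start of the gene.
Acta2: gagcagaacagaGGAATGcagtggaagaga
Mylk: tgcagttcagaaCATTCCctggtacgtgca
Lmod1: ccaagattccctGGAATGtcctcaagtttc
The CArG box, the site of serum response factor, was searched only in its strict form, CCWWWWWWGG, where W is A or T. That form was in 0 of the 5 windows and in 1.63% of all. Looser forms of the site were not searched, so the count does not show that the site is absent. TTCNNNGAA, the STAT5 motif, was in 0 of the 5 and in 8.3% of all. A match here is a match of letters only.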

How the data were processed

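Cy3-labelled cRNA of 24 mice was hybridised to 1-colour Agilent arrays of 62976 spots. Per the file headers and the submitters' processing notes, Agilent Feature Extraction 12.0.3.2 gave each spot a background-subtracted processed signal, the deposited intensity. The authors' deposited value table holds log10 of the same signal, within 0.0050. Here log2 of the intensity was taken relative to each array's 75th percentile over 59305 non-control spots, outlier-flagged spots were left out, spots of a probe were averaged, and a probe was tested where any group had it well above background in 80% of its arrays or more. limma 3.58.1 (R 4.3.3) fitted the 4 group means on all 24 arrays and 6 comparisons were read from it. The fit was checked on simulated data. Each array is a separate mouse. Slides held several groups each and were tried as a block.

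All 9 genes were named in every comparison, and from each list the 3 called genes of largest change per comparison, with others (such as Srf, Krt5 and Smtn) named for their role after their values were seen. Members and lists were chosen with earlier results of these data known. Likeness is Pearson r over 24 arrays. Precision is limited by the number of arrays. Alternatives covered scaling, background correction, filters, probes, slides, weights and arrays left out. Probe positions are on mm9 as in the files; no genome of that build was used.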

Additional observations from a re-analysis of the deposited data

Results flagged for a closer look

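Of 36 sets of values (9 genes in 4 groups), 2 held an array far from the others of its group, where chance flags about 1 in 20 groups. Actg2 in wild-type virgins was highest in mouse 320, at 2.50, against 1.06 to 1.57 in the other 6, and this is the wild-type array with the highest Acta1, at 7.51. Tagln in wild-type mice at day 18 was lowest in mouse 232, at 6.34, against 6.58 to 6.64 in the other 4, and it was still above the highest knock-in value of 6.24.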

How the results depend on the processing

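Of the 9 genes, 0 were called in the 4 genotype comparisons under every alternative tried. Over all genes some alternatives did call genes. Array weights called 21 in virgins and 1 on average over the stages. Scaling to luminal markers called 14 in virgins, 9 at day 18 and 32 on average, and median scaling 1 on average. Without mice 376, 184 and 198, 1 gene was called in virgins, 1 at day 18 and 1 on average. With the slide as a block as well, 1 was called at day 18. The stage counts of the 9 genes kept within 1.5 times of 8 (wild type) and 9 (knock-in) under 40 and 38 of 43 alternatives. Leaving out single arrays gave 8 in wild type and 8 to 9 in the knock-in, and the slide as a block changed no count. Spike-in scaling called 5 in the knock-in. Relative to the basal keratins 0 and 0 were called, and relative to luminal markers (Epcam, Krt8, Krt18) 0 and 0. Without mice 376, 184 and 198, alternatives added after seeing the data, the keratin scale gave 5 and 2 and the luminal scale 6 and 2. Another scale moves all genes alike: the median of all genes went to -0.98 and -1.84 on the keratin scale, -0.86 and -2.10 on the luminal scale, and -0.91 and -0.78 with spike-ins. Called values turned sign on the 2 epithelial scales only. Wild-type Trp63 was -0.01 on the keratin scale, with and without the 3 mice. In the knock-in the keratin scale gave -0.67 for Actg2, -0.09 for Mylk, -0.64 for Lmod1, -0.54 for Oxtr and -0.93 for Trp63, and without the 3 mice -0.17 for Trp63. The luminal scale gave -0.93 for Actg2, -0.35 for Mylk, -0.11 for Tagln, -0.90 for Lmod1, -0.80 for Oxtr and -1.19 for Trp63, and without the 3 mice -0.13 for Actg2, -0.15 for Oxtr and -0.36 for Trp63. Of values not called under either setting, 5 in the wild-type stage comparison, 58 in the virgin, 16 in the day-18 and 28 in the averaged genotype comparison and 53 in the genotype-by-stage difference changed sign. No paired analysis was possible because the mouse numbers are not shared between groups. The dim probes of Lmod1, Trp63 and Mylk limit what can be read from them.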
